A study of Mus musculus with 12 samples.

Results

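The 10 genes described here, Atf4, Xbp1, Hspa5, Ddit3, Herpud1, Dnajb9, Trib3, Asns, Chac1 and Ddit4, belong to the unfolded protein response and the integrated stress response. They were chosen by name, as known genes of these pathways, and all 10 are among the 16106 genes of the deposited table. RNA was sequenced from cortical neurospheres, free-floating cultures of stem and progenitor cells of the embryonic mouse brain, that were treated with pravastatin, a hydrophilic statin that inhibits HMG-CoA reductase. The comparison asks which of these transcripts differed between treated and untreated cells, and in which cultures.

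There were 12 libraries in 4 groups of 3, namely Female vehicle, Female pravastatin, Male vehicle and Male pravastatin. The cells came from C57BL/6 embryos at embryonic day 14.5, with 3 biological replicates for each sex and treatment, and all cultures were at passage 3. Pravastatin was given at 10 μM and vehicle (phosphate-buffered saline per the study's methods) in an equal volume, both for 24 hours, and the labels name no mutation or transgene. The labels mark the vehicle libraries as re-analysed from an earlier deposition, so a difference in preparation cannot be told apart from the treatment. Vehicle and pravastatin libraries of the same sex and number were taken as 1 culture, F1 to F3 for females and M1 to M3 for males. Neurospheres are a mixed culture kept outside the embryo, which limits them as a model of the cortex, and in bulk RNA fewer cells of a type cannot be told apart from less RNA per cell.

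Values are the authors' normalized counts, in which read counts are divided by 1 factor for each library, and a library held between 13353619 and 18422845 reads. A count of 0 would allow a value of at most 0.157 to 0.228 (3 reads, counting error only), below every value given here. Changes were tested on the scale log2(value + 0.5), in a model with a term for sex. Since the numbers were taken to pair the libraries, which the study does not state, a further model replaced sex with the individual culture (the blocked model). Called genes are those with an adjusted p under 0.05. Of the 10 listed neural stem cell markers all were above 1 in every library. Cultures F2 and F3 stood apart with either treatment, with Gfap, an astrocyte filament, between 69.3 and 507 against 3.96 to 8.31 elsewhere, and counts without both are given beside the main ones. Microglia markers were missing, 0 of 9.

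The unfolded protein response senses misfolded protein in the endoplasmic reticulum (ER) through PERK, IRE1 and ATF6. PERK, together with the kinases GCN2, PKR and HRI that sense other stresses, phosphorylates the translation factor eIF2, which lowers protein synthesis overall while favouring translation of ATF4. ATF4 induces genes of amino acid supply and of feedback control, IRE1 splices the Xbp1 mRNA into the form that encodes an active factor, and ATF6 and XBP1 induce ER chaperones and the degradation machinery. Gene values count spliced and unspliced Xbp1 mRNA together and say nothing of ATF4 protein, so only the amount of mRNA is described.

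The RefSeq promoters (build GRCm38.p6) of all 10 genes were searched over the 250 bases before the annotated start for 4 sequence motifs, on both strands, because the genes are known as targets of different factors. The ER stress element ERSE is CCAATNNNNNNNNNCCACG and was found in 0.113% of 32851 promoters. ERSE-II, ATTGGNCCACG, was found in 0.0304%. The C/EBP-ATF response element CARE, searched as TGATGNAA, was found in 3.45%, and the XBP1 element UPRE, TGACGTGG, in 0.563%. No searched motif overlapped another in these 10 promoters. Matches were found for 4 of the 10 genes. The stretches around them are shown so that the letters can be set beside the results: CARE in Asns and Chac1, both called in the blocked model, ERSE in Hspa5, not called between treatments, and both kinds in Herpud1, called in the blocked model. Of the 6 genes called in that model, Atf4, Xbp1 and Trib3 had no match. In the model with sex and all libraries none of the 4 genes with a match was called, while Atf4 and Xbp1, without a match, were. The blocked call of Asns was lost without F2 and F3 (adjusted p = 0.0658). Each stretch runs 5′ to 3′ along the gene, with the motif in capitals.
Asns: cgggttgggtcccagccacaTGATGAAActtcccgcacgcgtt
Chac1: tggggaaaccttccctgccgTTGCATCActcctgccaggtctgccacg
Hspa5: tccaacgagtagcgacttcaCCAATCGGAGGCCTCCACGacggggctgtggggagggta
Herpud1: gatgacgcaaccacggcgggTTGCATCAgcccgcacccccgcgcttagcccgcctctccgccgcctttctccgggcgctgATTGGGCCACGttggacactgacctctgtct
The Asns stretch is chr6:7693210-7693252 on the minus strand and carries CARE, the Chac1 stretch is chr2:119351029-119351076 on the plus strand and carries CARE in reverse. The Hspa5 stretch is chr2:34772005-34772063 on the plus strand and carries ERSE. The Asns and Hspa5 stretches lie before the RefSeq start but within the longer GENCODE genes given below. In Herpud1, chr8:94386297-94386407 on the plus strand, CARE stands in reverse, 105 to 112 bases before the start, and ERSE-II stands 42 to 52 bases before it. A match describes these letters only, and the other 6 promoters had no match within this window.

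With both sexes together 2 of the 10 genes, Atf4 and Xbp1, rose after pravastatin, and none fell. Among all 15093 genes tested 406 (2.69%) were called higher and 47 (0.311%) lower. When the values were rescaled to equal library totals the split was 311 higher and 142 lower, and the same count of 2 of the 10 genes was called higher. In the blocked model 6 of the 10 genes were called higher, Atf4, Xbp1, Chac1, Trib3, Asns and Herpud1, and none lower, beside 10.5% of all genes higher and 8.13% lower. The median change of the 10 genes was 0.20 on the log2 scale, and that of all genes tested was -0.0081. None of the 10 was called above 1.5-fold with both sexes and all libraries. When F2 and F3 were left out, 3 were called higher, Atf4, Xbp1 and Chac1, and none lower, beside 8.7% of all genes higher and 8.01% lower.

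**Figure D1:**
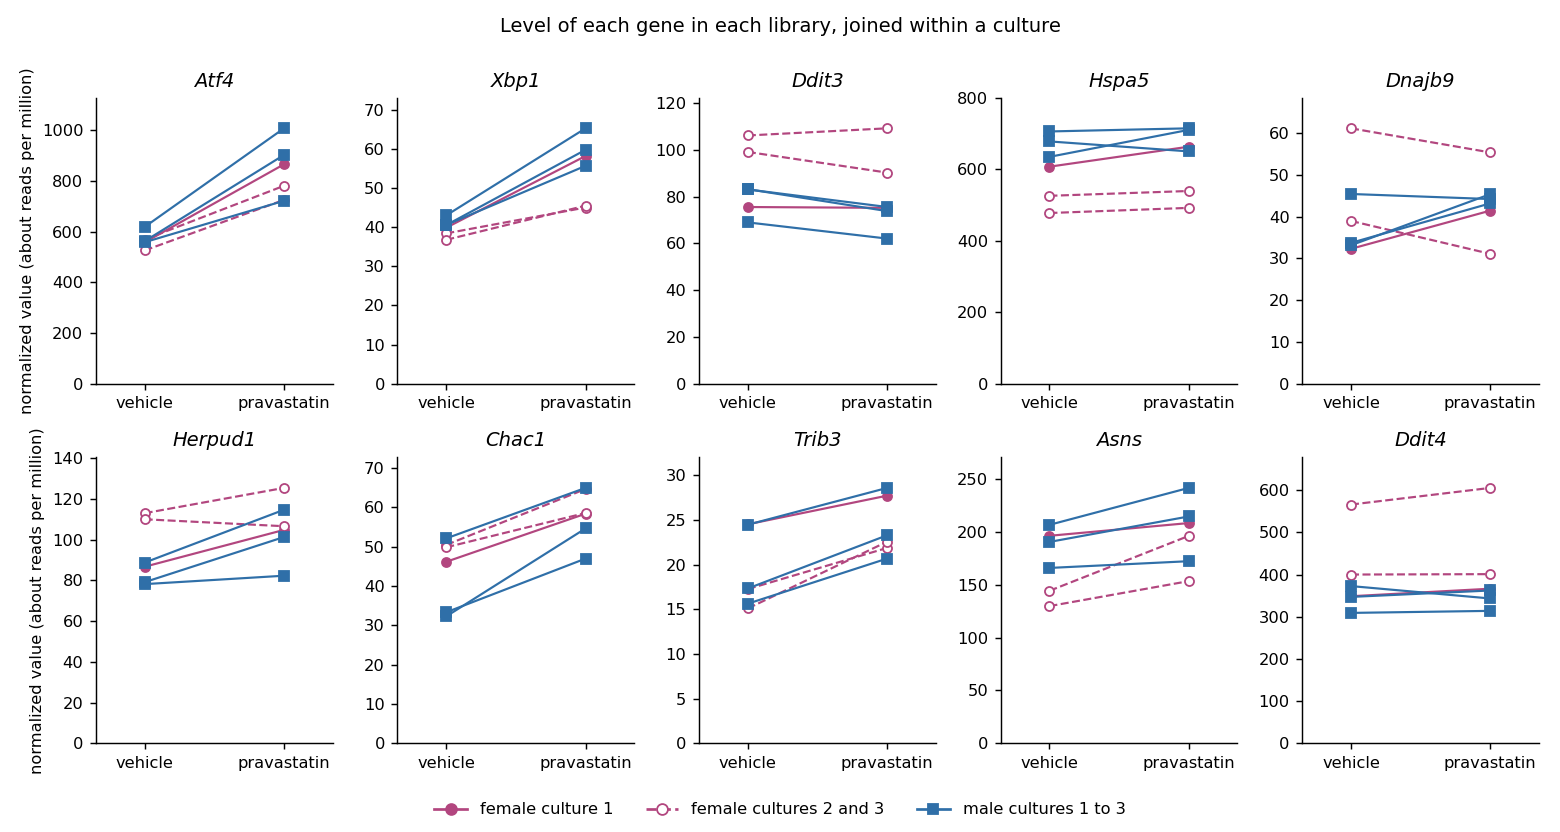
Normalized value (y axis, from 0) of each of the 10 genes with vehicle and with pravastatin, with a line for each culture. Circles are female cultures (open with dashed lines for F2 and F3) and squares male cultures. Only for Atf4 and Xbp1 do all 6 pravastatin values lie above all 6 vehicle values.

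Atf4 (ENSMUSG00000042406, chromosome 15, 80255184 to 80257541 in GRCm38, plus strand) encodes the central transcription factor of the integrated stress response. Its values in F1, F2, F3, M1, M2 and M3 were 558, 569.5, 526, 559, 563 and 619 with vehicle and 866, 782, 726, 722, 903 and 1009 with pravastatin. The groups did not overlap, and the vehicle values were close together while the pravastatin values spread from M1 at the bottom to M3 at the top. The mean went from 566 ± 30.1 to 835 ± 112 (SD, n = 6 each). The log2 fold change was 0.55 (SE 0.080, adjusted p = 0.00138, blocked 6.44e-06), and the ratio within a culture ran from 1.29 in M1 to 1.63 in M3. Leaving out any 1 library kept the call, with an adjusted p of at most 0.00628. Without F2 and F3 the log2 fold change was 0.60 (adjusted p = 0.000644).

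Xbp1 (ENSMUSG00000020484, chromosome 11, 5520659 to 5525893, plus strand) encodes the transcription factor that IRE1 activates by splicing. In the same order of cultures it stood at 39.9, 38.4, 36.8, 40.6, 43.03 and 40.5 with vehicle and at 58.2, 45.0, 45.5, 55.7, 65.3 and 59.8 with pravastatin. Again the groups did not overlap, and the 2 lowest pravastatin values were those of F2 and F3. The mean rose from 39.9 ± 2.12 to 54.9 ± 8.11, by 0.45 on the log2 scale (SE 0.076, adjusted p = 0.0046, blocked 0.000161). Without cultures F2 and F3 the log2 fold change was 0.54 (adjusted p = 0.000121). Of all genes tested, 2.25% had groups that did not overlap with pravastatin higher.

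Ddit3 (ENSMUSG00000025408, chromosome 10, 127290774 to 127296288, plus strand) encodes CHOP, a factor of the C/EBP family that is induced downstream of ATF4 and promotes cell death under lasting ER stress. It was at 75.6, 106, 99.1, 69.0, 83.2 and 83.1 with vehicle and at 75.2, 109, 90.3, 62.1, 73.8 and 75.6 with pravastatin. Both groups overlapped over most of their range, F2 and F3 were the highest with either treatment, and 1 of 6 cultures, F2, was higher with pravastatin. The log2 fold change was -0.093 (SE 0.11, 95% interval -0.33 to 0.14, adjusted p = 0.717, blocked 0.174). The upper end of that interval lies below the estimate for Atf4. The annotation places a second gene model of the same name over 2925 bases of Ddit3 on the same strand. The longest aligned stretch of their transcripts was 105 bases at 100% identity. On the opposite strand the gene Mars overlaps Ddit3 by 68 bases and Gm4189 by 15 bases, so the Ddit3 count is uncertain over those stretches.

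The ER chaperones and quality control genes divided. Hspa5 (ENSMUSG00000026864, chromosome 2, 34771970 to 34777547, plus strand) encodes BiP, the major ER chaperone and a known target of ATF6. It was at 607, 526, 478, 678, 706 and 635 with vehicle and at 663, 539, 492, 650.3, 715 and 710.4 with pravastatin. The differences between cultures were larger than those between treatments, with F2 and F3 the lowest in both groups. The log2 fold change was 0.054 (SE 0.081, 95% interval -0.12 to 0.23, adjusted p = 0.786, blocked 0.415). After rescaling to equal totals its sign turned, to -0.0078.

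Dnajb9 (ENSMUSG00000014905, chromosome 12, 44205559 to 44210326, minus strand) encodes ERdj4, a co-chaperone of BiP and a target of spliced XBP1. It was at 32.3, 61.1, 39.0, 33.1, 45.4 and 33.7 with vehicle and at 41.4, 55.3, 31.1, 45.4, 44.2 and 43.2 with pravastatin. It was higher in F1, M1 and M3, lower in F2 and F3 and nearly equal in M2, and the groups overlapped. Its log2 change was 0.11 (SE 0.17, 95% interval -0.25 to 0.47, adjusted p = 0.794, blocked 0.428). Without F2 and F3 it was 0.28, with an adjusted p of 0.0567 and of 0.0164 in the blocked model. A processed pseudogene, Gm6568, matches 156 bases of Dnajb9 at 98.1% identity and stood at 0.399 to 1.83, so reads from that stretch are uncertain. The gene Mir5627 overlaps Dnajb9 by 14 bases on the opposite strand.

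Herpud1 (ENSMUSG00000031770, chromosome 8, 94386438 to 94395377, plus strand) encodes an ER membrane protein of ER-associated degradation, and its promoter holds both CARE and ERSE-II letters. It was at 86.7, 113, 110.0, 78.2, 79.1 and 88.7 with vehicle and at 105, 125, 107, 82.3, 101 and 115 with pravastatin. Pravastatin values were higher in 5 of 6 cultures, all but F3, and the groups overlapped. The fitted log2 change was 0.20 (SE 0.095, adjusted p = 0.324), and it was called only in the blocked model (SE 0.057, adjusted p = 0.0306). Its log2 change without F2 and F3 was 0.27 (adjusted p = 0.0562, blocked 0.0048). The annotated antisense gene Gm15890 overlaps it over 535 bases and has no row in the table.

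Of the ATF4 targets, Chac1 (ENSMUSG00000027313, chromosome 2, 119351229 to 119354381, plus strand) encodes an enzyme that degrades glutathione. It was at 46.1, 50.4, 49.8, 33.3, 32.3 and 52.1 with vehicle and at 58.4, 64.7, 58.6, 47.0, 54.6 and 64.9 with pravastatin. Every culture was higher with pravastatin, most in M2 with a ratio of 1.69, but M1 and M2 started low enough for the groups to overlap. The fitted log2 change was 0.41 (SE 0.12, adjusted p = 0.0976), and Chac1 was called in the blocked model (SE 0.064, adjusted p = 0.000642). It was also called by DESeq2 (adjusted p = 0.0378), without F2 and F3 (0.0361) and without Male vehicle replicate 3 (0.0278).

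Trib3 (ENSMUSG00000032715, chromosome 2, 152337422 to 152344032, minus strand) encodes a pseudokinase that ATF4 and CHOP induce and that restrains both. It had the fewest reads of the 10, between 251 and 505 in a library. It was at 24.5, 17.3, 15.1, 15.6, 17.3 and 24.5 with vehicle and at 27.7, 21.9, 22.6, 20.7, 23.3 and 28.6 with pravastatin. Every culture was higher with pravastatin, while F1 and M3 were high with either treatment. The fitted log2 change was 0.35 (SE 0.14, adjusted p = 0.233), called only in the blocked model (SE 0.066, adjusted p = 0.00276). It was 0.30 without F2 and F3 (adjusted p = 0.141, blocked 0.00939).

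Asns (ENSMUSG00000029752, chromosome 6, 7675169 to 7693254, minus strand) encodes asparagine synthetase, a classical target of ATF4. It was at 196, 129.9, 144, 166, 191 and 207 with vehicle and at 209, 154, 196, 172, 215 and 242 with pravastatin. All 6 cultures were higher with pravastatin, by ratios from 1.04 in M1 to 1.36 in F3, and the groups overlapped. The rise in M1 was smaller than that of the library total there, from 970411 with vehicle to 1052479 with pravastatin. The log2 change of Asns was 0.20 (SE 0.12, adjusted p = 0.425), called only in the blocked model (SE 0.051, adjusted p = 0.016). After rescaling to equal totals it was 0.14 (adjusted p = 0.574). Without F2 and F3 the blocked adjusted p was 0.0658.

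Ddit4 (ENSMUSG00000020108, chromosome 10, 59949669 to 59951834, minus strand) encodes REDD1, an inhibitor of mTORC1 that ATF4, hypoxia and glucocorticoids induce. It was at 349, 400.0, 566, 309, 347 and 373 with vehicle and at 366, 401, 605, 314, 362 and 343 with pravastatin. F3 was far above the other cultures with both treatments, and each culture changed little. Its log2 change was 0.023 (SE 0.13, 95% interval -0.27 to 0.32, adjusted p = 0.951, blocked 0.735, with an interval of -0.069 to 0.12). Its sign turned, to -0.039, after rescaling.

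**Figure D2:**
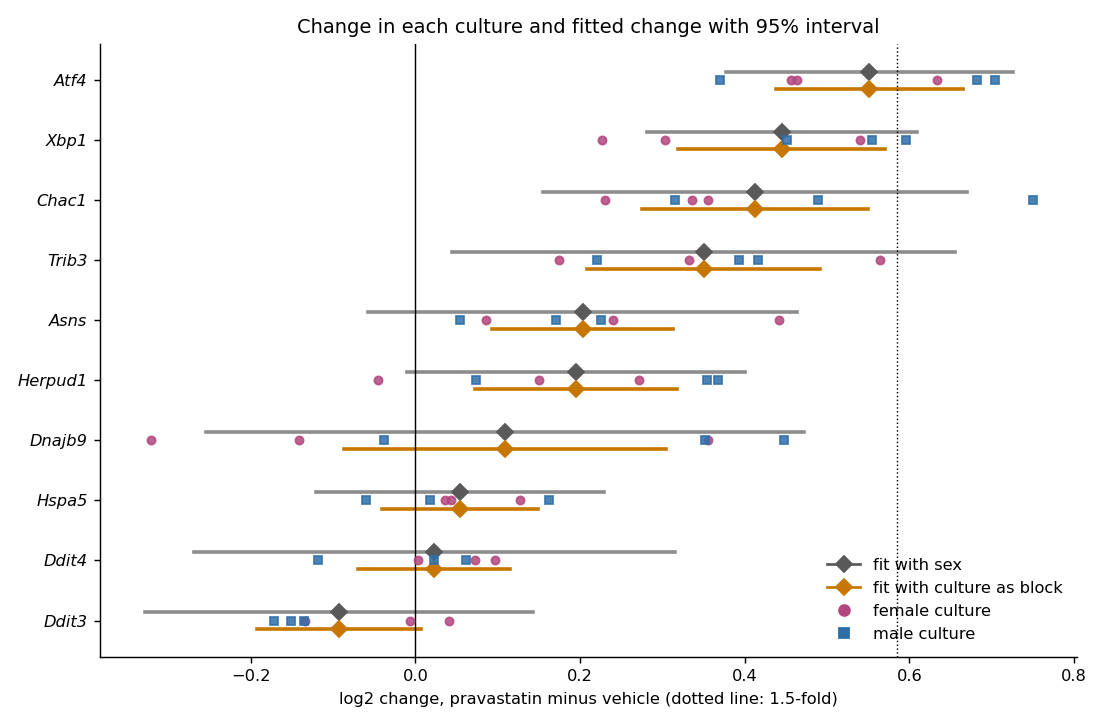
Log2 change from vehicle to pravastatin (x axis) of the 10 genes. Points are single cultures, diamonds with bars are the fitted change with its 95% interval, in grey for the model with sex and in orange for the blocked model. Atf4, at 0.55, and Xbp1, at 0.45, lie above 0 in both models, and Ddit3, at -0.093, is the only gene whose estimate lies below 0.

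Higher values in all 6 cultures were found for 5 of the 10 genes, Atf4, Xbp1, Chac1, Trib3 and Asns, and for 11.7% of all genes tested. Herpud1, Hspa5 and Ddit4 were higher in 5 of 6, a count that was not made over all genes. In every culture the values of the pravastatin library summed to more than those of its vehicle library, in M1 to 1052479 against 970411. Cultures were not counted at equal totals, where small rises could turn, so these counts depend on the scaling. Markers of other cells were also compared between the groups, and few were called in the model with sex. Their counts in the blocked model stand against 10.5% of all genes higher and 8.13% lower. Of 7 neuron markers tested 1, Snap25, was called higher, and 3 in the blocked model (Snap25, Syt1 and Tubb3), and the summed neuron markers were at 812 to 1065 with vehicle and 891 to 1075 with pravastatin. Of 8 astrocyte markers 0 were called (2 higher and 1 lower in the blocked model), with sums of 1525 to 3552 and 1725 to 3732. Of 8 oligodendrocyte markers tested 0 were called (3 higher in the blocked model), with sums of 1567 to 2189 and 1744 to 2394. Of 8 proliferation genes 0 were called in either direction (5 lower in the blocked model), with sums of 1172 to 3507 and 1249 to 3257. Without F2 and F3, whose sums were 1172 to 2460 against 2958 to 3507 elsewhere, 7 of the 8 were called lower, beside 8.01% of all genes. In males alone 5 of the 8 proliferation genes were called lower, beside 4.36% of genes called lower in males. The part of these markers in the results was not tested.

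The rest of the pathways, in lists of genes other than the 10, held at most 2 genes called higher and 1 lower each. Those counts stand against 2.69% of all genes higher and 0.311% lower in the model with sex. Their counts in the blocked model stand against 10.5% of all genes higher and 8.13% lower there. List counts without F2 and F3 stand against 8.7% of all genes higher and 8.01% lower in that fit. Of 12 stress sensors 2 rose, with or without the block and without F2 and F3. Eif2ak3, which encodes PERK, went from 109 ± 8.87 to 159 ± 12.0 (SD, n = 6 each, log2 fold change 0.55, SE 0.064, adjusted p = 0.000195). Eif2ak4, which encodes GCN2, went from 32.2 ± 2.25 to 41.3 ± 5.45 (log2 fold change 0.35, SE 0.081, adjusted p = 0.0379), but its call was lost after rescaling (0.0998) and with each of 10 libraries left out singly (up to 0.106, without Male vehicle replicate 2). Ern1, which encodes IRE1, and Atf6 had log2 fold changes of 0.22 and 0.13 and passed in neither model (adjusted p = 0.323 and 0.338).

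Of 11 genes of eIF2 and its regulators 0 rose and 1 fell, and in the blocked model 1 rose, Dnajc3. The gene that fell was Eif2b5, the catalytic subunit of the eIF2 exchange factor, from 110.3 ± 2.73 to 96.2 ± 3.93 (log2 fold change -0.20, adjusted p = 0.0338, and its call was lost with each of 9 libraries left out singly, up to 0.101 without Male pravastatin replicate 2). Other subunits of that factor, Eif2b1 and Eif2b4, had log2 fold changes of -0.18 and -0.15 and were not called (blocked adjusted p = 0.0581 and 0.0523). In the fit without F2 and F3, 1 gene of this list was called higher and 3 lower, Eif2b1 among them (adjusted p = 0.0463). Of 7 other stress transcription factors 0 were called, and 2 in the blocked model, Nupr1 (log2 fold change 0.39, blocked adjusted p = 0.0265) and Atf3 (0.31, blocked 0.000286). Atf3, a factor of the same family that ATF4 induces, was at 121 ± 18.0 with vehicle and 151 ± 26.5 with pravastatin. Both Nupr1 and Atf3 were called without F2 and F3 (adjusted p = 0.0323 and 0.0241).

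Of 22 other ER chaperones and folding enzymes 0 were called by limma in the model with sex. In the blocked model 3 were called higher and 1 lower, shares near or below those of 10.5% and 8.13% over all genes. Leaving out F2 and F3 gave 1 called higher and 1 lower. Those higher were Dnajc3, in both lists, which encodes the PERK inhibitor p58IPK (log2 fold change 0.21, blocked adjusted p = 0.00927), Canx, which encodes calnexin (0.18, 0.0159), and Ero1l, which encodes an oxidase of the ER (0.34, 0.0097). Sdf2l1, a stress-induced ER protein, had a log2 fold change of -0.30 (blocked 0.0412). DESeq2 without the block called Dnajc3 (adjusted p = 0.0177) and Canx (0.0165), but not Ero1l (0.238) or Sdf2l1 (0.219). Of 20 genes of ER-associated degradation 2 rose, beside 2.69% of all genes. Erlec1, which encodes an ER lectin, went from 21.8 ± 1.42 to 32.8 ± 3.25 (log2 fold change 0.58, SE 0.061, adjusted p = 9.41e-05). Sel1l, which encodes the adaptor of the HRD1 ubiquitin ligase, went from 112 ± 3.54 to 142 ± 7.31 (log2 fold change 0.34, SE 0.048, adjusted p = 0.00113), and both kept their call with each library left out. Syvn1, which encodes HRD1 itself, had a log2 fold change of 0.30 (adjusted p = 0.225) and was called in the blocked model (0.00787) and without F2 and F3 (0.0170), where 4 genes of this list were called higher.

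Of 23 amino acid genes of the ATF4 programme 1 rose, Aldh1l2, an enzyme of mitochondrial folate metabolism (log2 fold change 0.37, adjusted p = 0.0429), and its call was lost after rescaling (0.0798) and with each of 11 libraries left out singly (up to 0.122, without Male pravastatin replicate 2). In the blocked model 10 were called higher and 3 lower, beside 10.5% and 8.13% of all genes, and without F2 and F3 it was 6 higher and 2 lower. Slc1a5, a glutamine transporter, had the largest change of this list, from 23.2 ± 10.9 to 52.7 ± 21.3 (log2 fold change 1.23, adjusted p = 0.0591, blocked 5.4e-08). Slc1a5 was also called by DESeq2 (0.00527) and without F2 and F3 (1.31e-05), but not after rescaling (0.0734). Cbs and Phgdh, enzymes of transsulfuration and of serine synthesis, had log2 fold changes of -0.45 and -0.28 and were among the 3 lower (blocked 0.000273 and 0.00876). Both were called by DESeq2 (0.0415 and 0.0285), and Phgdh was also called after rescaling (0.0317). Of 20 aminoacyl-tRNA synthetases 0 were called, and in the blocked model 1 was called higher, Iars (log2 fold change 0.20), and 2 lower, Dars and Kars (-0.21 and -0.16), while without F2 and F3 it was 0 higher and 4 lower.

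Of 16 other targets of ATF4 and CHOP 2 rose, beside 2.69% of all genes. Stc2, which encodes stanniocalcin 2, went from 63.3 ± 15.0 to 109.5 ± 17.8 (log2 fold change 0.81, SE 0.14, adjusted p = 0.00521). Ndrg1, a stress-responsive gene also induced by hypoxia, went from 8.49 ± 2.41 to 18.2 ± 4.91 (log2 fold change 1.05, SE 0.21, adjusted p = 0.0123). Both were called above 1.5-fold and kept their call with each library left out. In the blocked model 5 were called higher and 1 lower, and without F2 and F3 it was 5 and 0, among them Nfil3, a transcription factor (log2 fold change 0.49, blocked adjusted p = 1.75e-05).

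Stress lists outside the ER had no call with both sexes and all libraries in the limma model with sex, but did in other fits. Of 14 cytosolic heat shock genes 0 were called, and in the blocked model 2 were called higher, Hspa4l and Hspb8, and 1 lower, Hspa4. The same 3 were called without F2 and F3 (adjusted p = 0.0429, 0.0284 and 0.00769), and DESeq2 called Hspa4l (0.00783) and Hspb8 (0.0454). Of 10 genes of the mitochondrial unfolded protein response 9 had a lower mean log2 value with pravastatin, 0 were called, and 3 were called lower in the blocked model, Clpp, Hspe1 and Dnaja3 (log2 fold changes -0.21, -0.30 and -0.16). Leaving out F2 and F3, 5 of the 10 were called lower, beside 8.01% of all genes. Clpp, Hspe1 and Dnaja3 were among them (adjusted p = 0.0252, 0.00215 and 0.0463). Clpp was also called after rescaling (0.0472) and by DESeq2 (0.0108), as was Hspe1 by DESeq2 (0.0454). The list's median was -0.12, against 0.18 for the amino acid genes, 0.026 for the ER chaperones and -0.0081 for all genes tested. Rescaling moved the median of all genes to -0.068, so small list medians are read only relative to it.

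**Figure D3:**
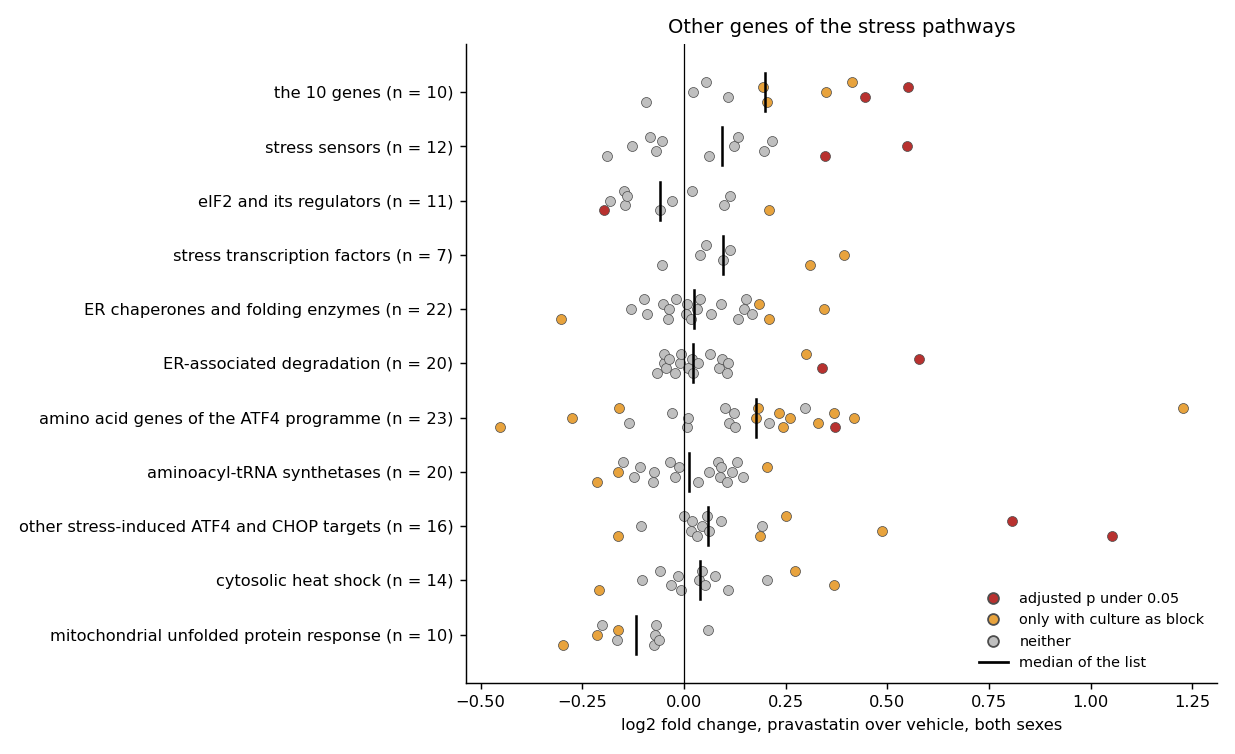
Log2 fold change of pravastatin over vehicle with both sexes (x axis) for every tested gene of each stress list (rows, with the number of genes). Red points passed at an adjusted p under 0.05, orange points only with culture as a block, grey points neither, and black bars are list medians. The 2 points farthest right are Slc1a5 at 1.23 and Ndrg1 at 1.05.

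In the males alone Atf4 and Xbp1 rose, 2 of the 10 genes, beside 6.08% of 15221 genes called higher. The log2 fold change was 0.59 for Atf4 (SE 0.11, adjusted p = 0.00606), the 1 gene of the 10 called above 1.5-fold, and 0.53 for Xbp1 (SE 0.081, adjusted p = 0.00163). Atf4 lay almost exactly at the 1.5-fold line. With a pseudocount of 1 and after rescaling 0 of the 10 genes were called above it, and with each library left out 0 to 3. In the blocked model 5 were called higher, beside 10.1% of genes, with Chac1 (log2 fold change 0.52, adjusted p = 0.000658), Trib3 (0.34, 0.0171) and Herpud1 (0.27, 0.0227) added. Ddit3 was lower in 3 of 3 male cultures (log2 fold change -0.15, adjusted p = 0.339, blocked 0.137). Dnajb9 had a log2 fold change of 0.25 (adjusted p = 0.169) and was called without Male vehicle replicate 2 (0.0348). Without Male pravastatin replicate 1, 4 genes were called, with Herpud1 (0.0095) and Chac1 (0.0424) added, and Chac1 was also called without Male vehicle replicate 3 (0.00594).

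In the females alone 0 of the 10 genes were called by limma or edgeR, beside 0.0724% of 15185 genes called higher. At an unadjusted p under 0.05 in the limma fit across all genes were Atf4, Chac1 and Xbp1, with an adjusted p of 0.285 for Atf4 and of nearly 1 for the others. DESeq2 called 1, Atf4 (adjusted p = 0.0022). In the blocked model 1 was called, Atf4 (log2 fold change 0.52, SE 0.061, adjusted p = 0.00416), beside 1.95% of genes called higher. Xbp1 had a log2 fold change of 0.36 and Chac1 of 0.31, with blocked adjusted p of 0.079 and 0.0609. Trib3 had 0.36 (blocked 0.153), Herpud1 0.13 (0.474), Ddit3 -0.033 (0.855) and Dnajb9 -0.036 (0.927).

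Leaving out F2 and F3 leaves 1 female culture, so the female values were not computed without both. The difference between the sexes was tested itself, as the interaction of sex and treatment over 15765 genes. No gene was called by limma (0%), with or without the block (0%), by edgeR or by DESeq2, and 138, 1145, 148 and 106 genes had an unadjusted p under 0.05 in these fits. For the 10 genes the change in males minus that in females lay between -0.12 for Ddit3 and 0.29 for Dnajb9. The estimate was 0.067 for Atf4 (95% interval -0.30 to 0.43), 0.18 for Xbp1 (-0.15 to 0.51) and 0.21 for Chac1 (-0.32 to 0.74). These intervals are wide, so neither equal nor unequal responses of the sexes are shown.

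**Figure D4:**
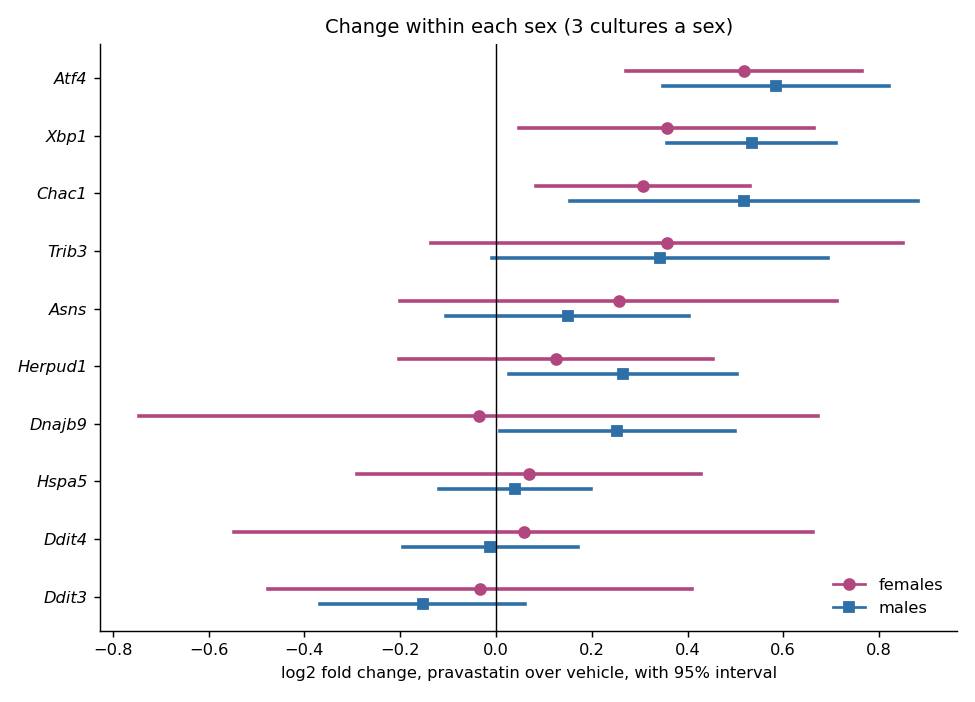
Log2 fold change of pravastatin over vehicle within females (circles) and within males (squares), with 95% intervals from the model without a block (3 cultures a sex). The intervals of the sexes overlap for all 10 genes, and the female intervals are wider for 9 of them, all but Chac1.

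With vehicle alone 0 of the 10 genes differed between males and females by limma, edgeR or DESeq2, beside 0.0332% of 15081 genes called in either direction. Only Hspa5 and Herpud1 were at an unadjusted p under 0.05 in the limma fit, with male minus female differences of 0.33 and -0.32 on the log2 scale (adjusted p = 0.354 for both). The female cultures are not alike, and without Female vehicle replicate 1, which leaves F2 and F3 as the female cultures, 2 of the 10 were called higher in males, Hspa5 and Asns, and 3 lower, Ddit3, Herpud1 and Ddit4. At the same time 3212 and 3339 genes were called, so these calls contrast F2 and F3 with the males.

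**Figure D5:**
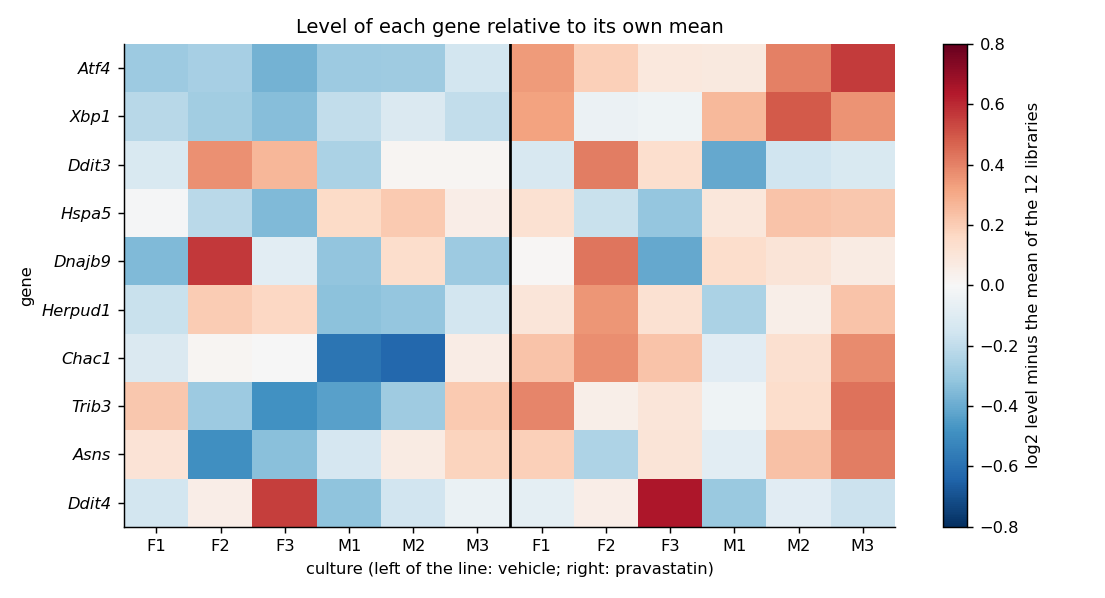
Log2 level of each gene minus its own mean over the 12 libraries (colour), by gene (rows) and culture (columns, vehicle on the left and pravastatin on the right). The Atf4 and Xbp1 rows change colour from left to right, while Ddit3, Hspa5 and Ddit4 keep the pattern of cultures, such as F3 at 566 and 605 for Ddit4.

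The levels of the genes with vehicle spanned a wide range. Per kilobase of exon, the mean value with vehicle was 240.0 ± 12.8 for Atf4, 223 ± 51.9 for Ddit4 and 143 ± 20.9 for Hspa5 (SD, n = 6). It was 63.03 ± 11.2 for Asns, 50.2 ± 8.23 for Ddit3 and 39.7 ± 6.52 for Herpud1. The lowest were Chac1 at 26.9 ± 5.45, Dnajb9 at 16.0 ± 4.36, Xbp1 at 12.3 ± 0.654 and Trib3 at 8.96 ± 2.03. The ranges over libraries of Atf4 and Ddit4 overlapped, as did those of Asns and Ddit3, of Ddit3 and Herpud1, of Chac1 and Dnajb9, of Dnajb9 and Xbp1, and of Xbp1 and Trib3, so these neighbours are not ordered beyond their spread.

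Over the 12 libraries, which share 2 treatments and the set-apart cultures F2 and F3, the log2 levels of Atf4 and Xbp1 were the most alike of the 45 pairs (Pearson r = 0.908). Herpud1 and Chac1 followed at 0.838. The most opposed were Hspa5 with Ddit4 (-0.841) and with Ddit3 (-0.748). Ddit3 was at 90.3 to 109 in the 4 libraries of F2 and F3 and at 62.1 to 83.2 in the other 8, while Hspa5 was at 478 to 539 against 607 to 715, so these opposed pairs follow the cultures. Of the genes tested, those with the highest correlation with Atf4 were Capn10 (0.981), Asah1 (0.976), Mpv17l2 (0.969), Siah2 (0.965) and Adipor2 (0.965). Those for Hspa5 were Gm37696 (0.979), Cycs (0.960), Flrt3 (0.960), Elovl2 (0.955) and Ppif (0.949). These are descriptions of the same 12 libraries and carry no test.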

How the data were processed

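Reads of repeat runs were merged by the authors and mapped with TopHat2 2.1.1 to GRCm38. Gene counts came from HTSeq at default settings on a Cufflinks and Cuffmerge annotation. The deposited signal values are counts divided by 1 factor for each library, already filtered for low genes, and the values of a library sum to between 962669 and 1052479. Multiplying by that factor gave back whole reads for 100% of 193272 values within 0.001 read. The authors' own fold changes, p-values and FDR values, which came from edgeR, were not used, and 21 symbols turned into dates were restored from gene identifiers. Other deposited sheets repeat these libraries and were not used.

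Comparisons used limma 3.58.1 in R 4.3.3 (lmFit and eBayes with a trend) on log2(value + 0.5), with Benjamini-Hochberg adjustment over all genes tested, which had to exceed 1 in 6 or more libraries (in 3 or more for single sexes, vehicle alone and the interaction). Fold changes on this scale understate those of low genes. The procedure was tested on simulated counts without differences between cultures, so that test cannot show how the fits handle the spread between these cultures. Alternatives were edgeR 4.0.16 and DESeq2 1.42.0 on the recovered reads, pseudocounts of 1 and 0.1, no filter, values rescaled to equal totals, a block for each culture, leaving out F2 and F3, and leaving out each library. Leaving out F2 and F3 in the blocked model, and edgeR with the block within a sex, were added after seeing the data.

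The study's text states no pairing. Same-numbered libraries share the start of their sample codes, and their deviations from the group means correlated at 0.871, 0.871 and 0.428 in females and 0.182, 0.179 and 0.303 in males, so the numbers were taken to pair them. The value for female culture 3 was close to that of Female vehicle 3 with Female pravastatin 2 (0.425). The labels name no date or batch. Without the block p-values measure the spread between these cultures, and with it they measure how the change varies from culture to culture.

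The 10 genes and all lists were chosen with earlier results of these data known. Named from each other list were the 4 genes with the smallest p and those called in either model, up to 6 by p, of which the text gives most. For Atf4 and Hspa5 the 5 genes most correlated with each were named. Coordinates and exon lengths are from GENCODE vM21, and near copies (at least 95% identity over at least 100 bases) were sought with blastn 2.17.0. The strand setting of the counting is not given beyond the default, so genes that overlap on the opposite strand are named where they occur.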

Additional observations from a re-analysis of the deposited data

Results flagged for a closer look

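Among the 10 genes in the 6 vehicle and the 6 pravastatin libraries (20 groups tested), a single library stood far from the rest of its group in 2 cases, and chance alone would give about 1 in 20. Both were Ddit4 in female culture 3. They come from libraries taken as 1 culture, so they are not independent, and no excess over chance is read from them. With vehicle Ddit4 was at 566, with the next library at 400.0, a gap of 0.646 of the group's range. With pravastatin it was at 605, with the next at 401, a gap of 0.701 of the range. Both gaps exceed Dixon's 95% critical value for 6 libraries, and groups of 3 were not examined in this way.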

How the results depend on the processing

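Atf4 and Xbp1 were called with both sexes under every alternative run. The replicate block moved the count of the 10 genes called higher from 2 to 6 with both sexes (also 6 by edgeR with the block, and 6 with the block and without F2 and F3), from 2 to 5 in males (also 5 by edgeR) and from 0 to 1 in females (also 1 by edgeR with the block, and 1 by DESeq2 without it). It changed no call of the interaction, and pairing does not apply to the comparison of the sexes with vehicle. With each library left out, the count ran from 2 to 3 with both sexes and from 2 to 4 in males, and with vehicle from 0 to 2 higher and 0 to 3 lower in males than in females.

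Signs turned only for changes that were not called. After rescaling Hspa5 was at -0.0078 and Ddit4 at -0.039. With each library left out, Hspa5 ran from -0.0013 to 0.094 and Ddit4 from -0.078 to 0.11 with both sexes, Ddit3 from -0.18 to 0.0995 and Dnajb9 from -0.24 to 0.22 in females, and the interaction for Atf4 from -0.039 to 0.20. The cause was not tested.

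Counts over all genes with both sexes were 406 higher and 47 lower, against 600 and 244 by DESeq2, 311 and 142 after rescaling, 1583 and 1227 with the block, 1523 and 1333 by edgeR with the block, 1313 and 1209 without F2 and F3, and 1939 and 1886 with both. With each library left out the lower count ran from 11 to 112. In males 925 and 664 became 1537 and 1336 with the block, 1688 and 1149 by edgeR with the block, 686 and 1410 after rescaling, and with each library left out 483 to 1066 and 123 to 869, lowest without Male vehicle replicate 2. In females 11 and 0 became 296 and 28 with the block, 298 and 34 by edgeR with the block, 130 and 2 by DESeq2, 1 and 0 after rescaling, and 0 to 19 higher with each library left out. With vehicle, 4 and 1 became 14 and 48 by DESeq2. Each of the 10 genes had at least 251 reads in every library, so none was near the limit that a count of 0 allows.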
